A study of Mus musculus with 8 samples.

Results

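The choroid plexus is the epithelium of the brain ventricles that secretes cerebrospinal fluid and separates blood from the ventricle. In the temporal horn of the lateral ventricle it lies directly against the hippocampus. Its epithelial cells are known for very high levels of a few transport and secretion genes, and 10 of these were followed here: Ttr, Kl, Folr1, Clic6, Aqp1, Otx2, Slc4a5, Enpp2, Sostdc1 and Calml4. They were chosen by gene symbol, and all 10 were found among the 29442 genes of the count table.

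The data were read counts per gene from 8 hippocampal RNA libraries of female C57BL/6 J mice that were 6–8 weeks old when the study selected them. The libraries labelled DHEA (HipR3, HipR4, HipR7 and HipR11) came from 4 mice injected under the abdominal skin with dehydroepiandrosterone, an adrenal androgen precursor, at 30 mg/kg/day for 21 days. The control libraries (HipR5, HipR9, HipR10 and HipR16) came from 4 mice that received sesame oil, the vehicle, over the same 21 days. The methods give 4 mice per group, whereas the series description speaks of 6 tissues, a difference that was not resolved here. The methods also name the ventral hippocampus, whereas the labels name the hippocampus only. Total counts ranged from 35748416 to 38038361 per library in the DHEA group and from 31483772 to 35418297 in the control group, without overlap. Each direction given below follows the deposited treatment labels, which were not tested independently here. The assignment of these labels to the libraries is uncertain, and every direction would turn if they were exchanged between the groups. As a check of the tissue, 9 genes of hippocampal principal neurons, among them Prox1 of the dentate gyrus and Neurod6 of pyramidal cells, summed to between 1106 and 1315 CPM (counts per 1000000, after TMM normalization) in the 8 libraries.

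A pair of libraries stood apart in the choroid plexus genes before any comparison of groups, HipR4 of the DHEA group and HipR9 of the control group. HipR4 was the lowest library for 10 of the 10 genes and HipR9 the second lowest for 10 of the 10. HipR3 and HipR11, both of the DHEA group, were the highest pair for every one of the 10 genes. The summed level of the 10 genes was 6829 CPM in HipR3, 354.3 in HipR4, 3489 in HipR7 and 6325 in HipR11. In the control group it was 4562 CPM in HipR5, 927.8 in HipR9, 3123 in HipR10 and 3537 in HipR16. The groups therefore overlapped, and each group held 1 library far below the rest. In bulk tissue, fewer cells of a type and less RNA per cell cannot be told apart.

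**Figure D1:**
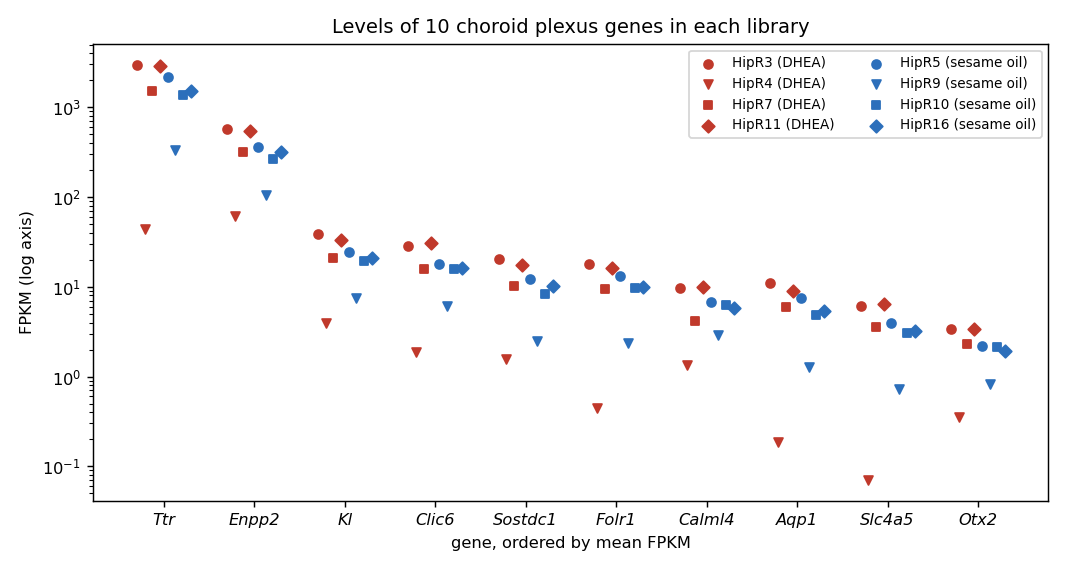
Level of each of the 10 genes (FPKM, fragments scaled to gene length and library total, log axis) in each of the 8 libraries, with genes ordered by their mean. Each point is 1 library, red for DHEA and blue for sesame oil; the downward triangles, HipR4 and HipR9, lie lowest for every gene.

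Regulatory sequence was read for the members present in the RefSeq promoter table of build GRCm38.p6, which held windows of 300 bases for 5 of the 10 genes (Kl, Aqp1, Slc4a5, Calml4 and Otx2, 8 windows in all). The submitters' notes name GRCm39 for the counts, so these positions apply to the sequence table only. The genes Slc4a5 and Aqp1 are shown because they had the widest ranges over the libraries among these 5, and Otx2 because it encodes a transcription factor of this epithelium. The last 250 bases before the annotated start are given, 5′ to 3′, with capitals marking TAATCC or its reverse complement GGATTA, the core letters that OTX proteins are known to bind.
Slc4a5, chr6:83237125-83237374, plus strand: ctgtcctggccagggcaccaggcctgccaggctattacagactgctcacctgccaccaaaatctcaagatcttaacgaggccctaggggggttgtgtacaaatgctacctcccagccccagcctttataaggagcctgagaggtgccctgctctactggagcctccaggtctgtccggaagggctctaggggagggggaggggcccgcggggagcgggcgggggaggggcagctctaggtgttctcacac
Aqp1, chr6:55336049-55336298, plus strand: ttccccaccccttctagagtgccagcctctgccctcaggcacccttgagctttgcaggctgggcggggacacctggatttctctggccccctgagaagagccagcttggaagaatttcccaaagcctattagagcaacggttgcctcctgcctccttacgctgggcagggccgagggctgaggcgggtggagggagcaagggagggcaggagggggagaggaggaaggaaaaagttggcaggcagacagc
Otx2, chr14:48665110-48665359, minus strand: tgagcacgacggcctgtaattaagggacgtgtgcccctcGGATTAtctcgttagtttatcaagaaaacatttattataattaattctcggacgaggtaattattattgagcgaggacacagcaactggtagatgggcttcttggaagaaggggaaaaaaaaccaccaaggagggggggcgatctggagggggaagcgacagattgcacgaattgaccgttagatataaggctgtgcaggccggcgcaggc
The letters occurred in 1 of the 8 windows, that of the Otx2 start shown, as GGATTA from 211 to 206 bases before the start. Among all 32851 windows in the table, 7.06% held them on either strand. A match is a description of the letters, not of binding.

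Among the carrier and receptor genes, Ttr encodes transthyretin, which carries thyroid hormone and retinol-binding protein in the cerebrospinal fluid. Ttr was the most abundant of the 10 genes, at a mean of 1601 FPKM over the 8 libraries. Its level was 4015 CPM in HipR3, 60.4 in HipR4, 1963 in HipR7 and 3748 in HipR11, all of the DHEA group. In the control group it was 2834 CPM in HipR5, 432.7 in HipR9, 1809 in HipR10 and 2013 in HipR16. HipR3 and HipR11 lay above every control library, whereas HipR4 lay below every one. The highest library held 66.5 times the level of the lowest (95% interval 63.7 to 69.3, from counting error only). The standard deviation of log2(CPM + 0.5) over the 8 libraries was 2.04 for Ttr and ranked 1 among 16813 genes whose mean count reached 10, and the median of those genes was 0.16. By the ratio of the highest to the lowest of all 8 libraries, Slc4a5 and some genes outside the 10 ranged more widely. Without HipR4 the ratio of Ttr was 9.28. Within groups, Ttr also ranked 1 on this log2 scale, with a pooled standard deviation of 2.20 on the log2 scale.

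Folr1 encodes folate receptor alpha, which moves folate from blood into the cerebrospinal fluid, and Kl encodes klotho, a co-receptor for a fibroblast growth factor hormone. Folr1 was 29.7, 0.757, 15.3 and 26.2 CPM in HipR3, HipR4, HipR7 and HipR11, and 21.2, 3.74, 15.7 and 16.2 CPM in HipR5, HipR9, HipR10 and HipR16. It followed the order of Ttr closely, with a ratio of 39.2 between the highest and the lowest library. Kl was 219.3, 22.6, 115.2 and 183.3 CPM in the same DHEA libraries and 135.2, 40.7, 106.7 and 117.4 CPM in the same control libraries. Its order was that of Ttr, but its range was narrower, with a ratio of 9.72. Without HipR4 the ratios were 7.96 for Folr1 and 5.39 for Kl.

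Slc4a5, Aqp1 and Clic6 encode proteins of ion and water transport. Slc4a5 encodes a sodium bicarbonate cotransporter of the choroid plexus, Aqp1 a water channel and Clic6 a chloride intracellular channel protein. Slc4a5 was 38.3, 0.449, 22.0 and 39.5 CPM in HipR3, HipR4, HipR7 and HipR11, and 23.9, 4.42, 18.8 and 19.99 CPM in HipR5, HipR9, HipR10 and HipR16. The 0.449 CPM in HipR4 rested on 16 counts, and the ratio of 88.1 between HipR11 and HipR4 has a 95% interval of 53.8 to 144.2 from counting error. Over all 8 libraries Slc4a5 had the widest range of the 10 genes, although its interval included the ratio of 66.5 for Ttr. Without HipR4 the order of Ttr and Slc4a5 turned, with ratios of 9.28 and 8.95. Aqp1 was 31.2, 0.533, 16.2 and 24.8 CPM in the DHEA libraries and 20.3, 3.498, 13.3 and 14.7 CPM in the control libraries, with HipR3 and HipR11 highest and HipR9 and HipR4 lowest. Its ratio of the highest to the lowest library was 58.6, whereas that of Clic6 was 15.5. Without HipR4 these ratios were 8.93 and 5.11. Clic6 ranged from 7.32 CPM in HipR4 to 113.3 CPM in HipR11.

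Enpp2 and Sostdc1 encode secreted proteins. The product of Enpp2, autotaxin, makes lysophosphatidic acid and is also known from oligodendrocytes, while that of Sostdc1 antagonizes BMP and Wnt signals. Enpp2 was the second most abundant gene, at a mean of 316.6 FPKM. It was 2317, 255.7, 1263 and 2128 CPM in HipR3, HipR4, HipR7 and HipR11, and 1421, 408.3, 1065 and 1260 CPM in HipR5, HipR9, HipR10 and HipR16. HipR4 and HipR9 were again the lowest pair, although Enpp2 was at 255.7 CPM in HipR4 where Ttr was at 60.4 CPM. The ratio of the highest to the lowest library was 9.06 for Enpp2 and 13.1 for Sostdc1, and 5.67 and 8.60 without HipR4. Sostdc1 ranged from 2.80 CPM in HipR4 to 36.7 CPM in HipR3.

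Otx2, the transcription factor gene, was 19.7, 2.08, 12.8 and 19.1 CPM in HipR3, HipR4, HipR7 and HipR11, and 12.2, 4.57, 12.03 and 10.9 CPM in HipR5, HipR9, HipR10 and HipR16. It ranged 9.51-fold. An antisense gene, Otx2os1, had between 1 and 29 counts per library, and whether the counting used strand is not given in the sources used here, so reads of the pair cannot be told apart. Calml4, a calmodulin-like gene, ranged from 1.68 CPM in HipR4 to 12.01 CPM in HipR3, a ratio of 7.13 and the narrowest of the 10. By length-normalized mean level, the order of the 10 genes was Ttr, Enpp2, Kl, Clic6, Sostdc1, Folr1, Calml4, Aqp1, Slc4a5 and Otx2, from 1601 ± 1063 to 2.06 ± 1.08 FPKM (SD, n = 8). Ttr exceeded Enpp2 in 7 of the 8 libraries, Enpp2 exceeded Kl in 8, Kl exceeded Clic6 in 8, Clic6 exceeded Sostdc1 in 8 and Aqp1 exceeded Slc4a5 in 8. The other neighbours changed places in some libraries. Sostdc1 exceeded Folr1 in 6 of 8, Folr1 exceeded Calml4 in 6, Calml4 exceeded Aqp1 in 5 and Slc4a5 exceeded Otx2 in 6.

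The 10 genes did not keep a constant proportion to Ttr in the libraries where they were low. Slc4a5 stayed between 0.158% and 0.239% of the FPKM of Ttr in all 8 libraries, and its 0.158% in HipR4 was the lowest. Aqp1 stayed between 0.316% and 0.421%. For both genes the level was low where Ttr was low, HipR4 included, in nearly the same proportion. Enpp2 was 16.5% to 21.2% of Ttr in 6 libraries, 31.1% in HipR9 and 139.6% in HipR4, where its 62.0 FPKM exceeded the 44.4 FPKM of Ttr. Otx2 was 0.09997% to 0.154% of Ttr in the same 6 libraries, 0.245% in HipR9 and 0.798% in HipR4. Kl was 1.12% to 1.39% in those 6, 2.22% in HipR9 and 8.80% in HipR4. Clic6, Sostdc1 and Calml4 reached 4.27%, 3.49% and 3.06% of Ttr in HipR4, all above their share in every other library. Folr1 was in between, at 0.566% to 0.703% in 7 libraries and 1.02% in HipR4. Whether these remainders come from other cells of the hippocampus was not tested.

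**Figure D2:**
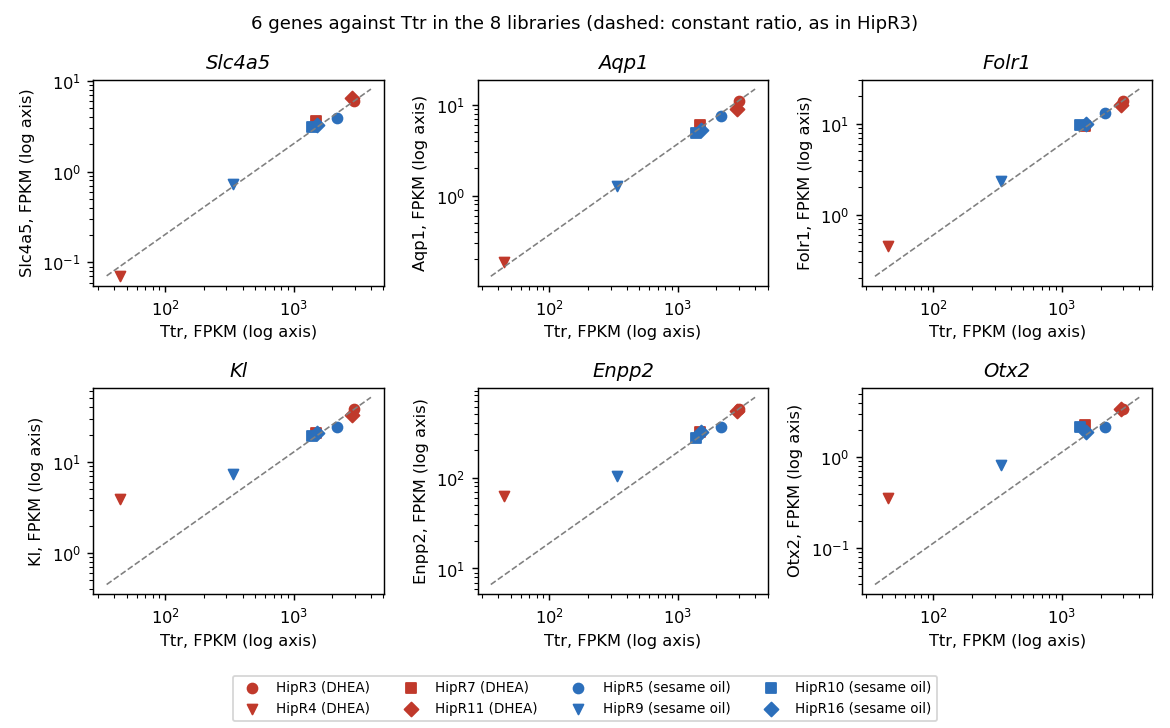
FPKM of 6 genes against FPKM of Ttr (both log axes), 1 point per library, with a dashed line of constant ratio drawn through HipR3. Slc4a5 and Aqp1 stay near the line down to HipR4, Folr1 lies above it in HipR4 at 1.02% of Ttr, and Kl, Enpp2 and Otx2 lie above it in HipR9 and further above it in HipR4, where Enpp2 reached 139.6% of Ttr.

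A list of 30 further choroid plexus genes was used to see whether the pattern extended beyond these 10, and 29 were matched in the table. HipR4 was the lowest library for 27 of the 29, and the highest was HipR3 for 18 and HipR11 for 11. Their ratio of the highest to the lowest library ranged from 1.57 to 188.1 with a median of 8.37, and 12 exceeded 10. Tmem72 had the widest range, from 6 counts in HipR4 to 1176 in HipR3. The inward rectifier Kcnj13, the potassium channel subunit Kcne2, the tight junction gene Cldn2 and the coagulation factor gene F5 ranged 37.5-fold, 73.9-fold, 34.4-fold and 27.1-fold. The 5 most abundant by FPKM were the growth factor gene Igf2 (38.6 FPKM), Igfbp2, which binds insulin-like growth factors (25.7), Ecrg4, which encodes a secreted peptide precursor (22.8), the chloride cotransporter gene Slc12a2 (20.1) and the serotonin receptor gene Htr2c (16.1). Of these, Ecrg4 ranged 17.2-fold and the others 1.57-fold to 3.38-fold. Igf2, Igfbp2, Slc12a2 and Htr2c are known from other brain or meningeal cells as well, and whether this bears on their ranges was not tested.

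**Figure D3:**
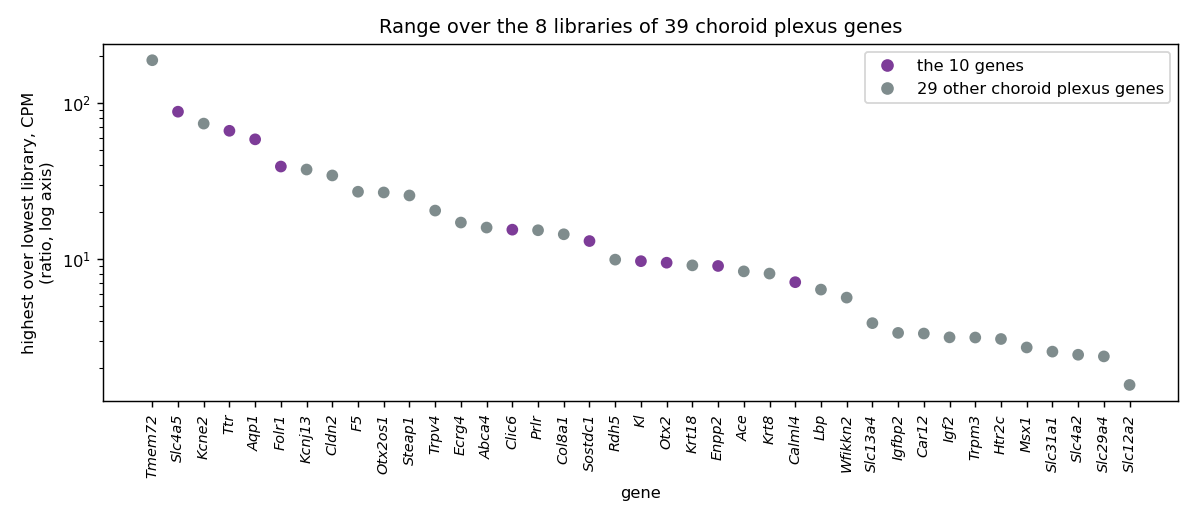
Ratio of the highest to the lowest library (CPM, log axis) for the 10 genes in purple and 29 other choroid plexus genes in grey, in falling order. Values run from 188.1 for Tmem72 to 1.57 for Slc12a2, and the 10 genes lie between 88.1 and 7.13.

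The genes whose levels were most like those of Ttr were ranked by Pearson's r of log2(CPM + 0.5) over the 8 libraries, as a description across genes that share the same libraries. Outside the 10, the closest were Tmem72 (r = 0.998), Kcne2 (0.996), Cldn2 (0.991), Kcnj13 (0.991), Trpv4 (0.990), Rdh5 (0.989), Drc7 (0.988), Frem1 (0.988), F5 (0.988) and Plxnb2 (0.987). Of these, 7 belong to the list of further choroid plexus genes, while Drc7, Frem1 and Plxnb2 do not. Plxnb2, a semaphorin receptor gene, moved with Ttr over a small range only, from 58.2 CPM in HipR4 to 87.4 CPM in HipR11. The 9 other members had r from 0.952 for Calml4 to 0.998 for Slc4a5. In all, 135 genes outside the 10 had r above 0.9, of which 20 were in the list of further choroid plexus genes. HipR4 and HipR9 were the 2 libraries farthest from the median of Ttr on the log2 scale. Over the other 6 libraries r was 0.974 for Sostdc1, 0.991 for Folr1, 0.988 for Kcne2, 0.951 for Tmem72, 0.959 for Slc4a5, 0.970 for Enpp2, 0.886 for Calml4 and 0.809 for Frem1.

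The comparison of DHEA with sesame oil asks whether the treatment changed gene expression in the hippocampus. With all 8 libraries, none of the 10 genes differed between the groups beyond the spread between replicates, and this outcome depended on HipR4, as given below. A gene was called where the unadjusted p of edgeR's quasi-likelihood test was under 0.05 and the level differed at least 2-fold, the limits used in the study. By this rule 0 of the 10 genes were called, against 442 of all 27612 genes tested (1.60%). At an unadjusted p under 0.05 alone, the test gave 0 of the 10 (9.31% of all genes), and DESeq2 also called 0 of the 10 by the same limits. After Benjamini-Hochberg adjustment over all genes tested, 0% of them had an adjusted p under 0.05, but this count was 93 without HipR7, 12 without HipR11 and at most 2 without any other library, with 0 of the 10 genes among them. The 2 groups overlapped for 10 of the 10 genes, where 5.04% of all genes had groups that did not overlap.

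Ttr was 2447 ± 1833 CPM (SD, n = 4) in the DHEA group and 1772 ± 996.8 CPM (SD, n = 4) in the control group. The log2 fold change of 0.47 was smaller than its standard error of 0.67 (edgeR quasi-likelihood, BH-adjusted p = 0.807). Exact permutation of the mean CPM, two-sided and with 70 possible allocations, gave p = 0.571. The mean was higher in the DHEA group while its standard deviation was 74.9% of that mean. With all 8 libraries Sostdc1 had the largest fold change of the 10, at 0.60 ± 0.48 on the log2 scale (SE; edgeR quasi-likelihood, BH-adjusted p = 0.666). Its levels were 21.8 ± 15.0 CPM (SD, n = 4) in the DHEA group and 14.4 ± 7.28 CPM (SD, n = 4) in the control group. Slc4a5 was close, at 0.58, and their order turned in some fits that omit a library, as without HipR4 (0.98 for Slc4a5 and 0.96 for Sostdc1). In the fit to all 8 libraries Calml4 had the smallest fold change, at 0.24 ± 0.39 (SE; edgeR quasi-likelihood, BH-adjusted p = 0.845). The fold changes of the other members lay between 0.34 and 0.58, and exact permutation gave p between 0.429 and 0.686 over the 10 genes, where the smallest p that 4 against 4 allow is 0.0286. The median log2 fold change was 0.47 over the 10 genes and 0.0079 over all genes tested.

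All 10 fold changes were positive in the fit to counts, but the sign depended on the scale. On log2(FPKM + 0.1) the difference was negative for Ttr, Folr1, Clic6, Aqp1, Slc4a5 and Calml4. The estimates also leaned on single libraries. For Ttr the log2 fold change was 0.86 without HipR4 and 0.79 without HipR5, whereas it was 0.12 without HipR3, 0.14 without HipR9 and 0.18 without HipR11. For Slc4a5 it reached 0.98 without HipR4, and for Folr1 it was -0.012 without HipR3. The p-values depended on HipR4. Without it, 10 of the 10 genes had an unadjusted p under 0.05 (7.26% of all genes in that fit), from 0.00179 to 0.0405 in edgeR's test, and all were higher in the DHEA group by 0.56 to 0.98 on the log2 scale. No fold change reached 2-fold, so 0 were called, and 0 had an adjusted p under 0.05 (edgeR, 0.355 to 0.678). HipR4 was the lowest library for each of the 10 genes, and they moved together (r with Ttr of 0.952 to 0.998). The count of 10 is therefore a description only and not 10 separate results. The levels of Ttr still overlapped, with HipR7 at 1963 CPM below HipR5 at 2834 CPM, as did those of the other members except Otx2. For Otx2 the lowest remaining DHEA library, HipR7, was at 12.84 CPM and the highest control library, HipR5, at 12.19 CPM. The share of all genes whose groups do not overlap without HipR4 was not computed, so no weight is put on this. Without any other single library, 0 of the 10 had an unadjusted p under 0.05. Without both HipR4 and HipR9, a pair chosen for its low levels of these genes, 9 of the 10 had an unadjusted p under 0.05 (6.77% of all genes in that fit), with fold changes of 0.35 to 0.66 on the log2 scale. Calml4 was the exception. By edgeR, 0 of the 10 had an adjusted p under 0.05, against 12 of all 26941 genes in that fit. Because the pair was picked on the genes tested, these counts are a description only.

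**Figure D4:**
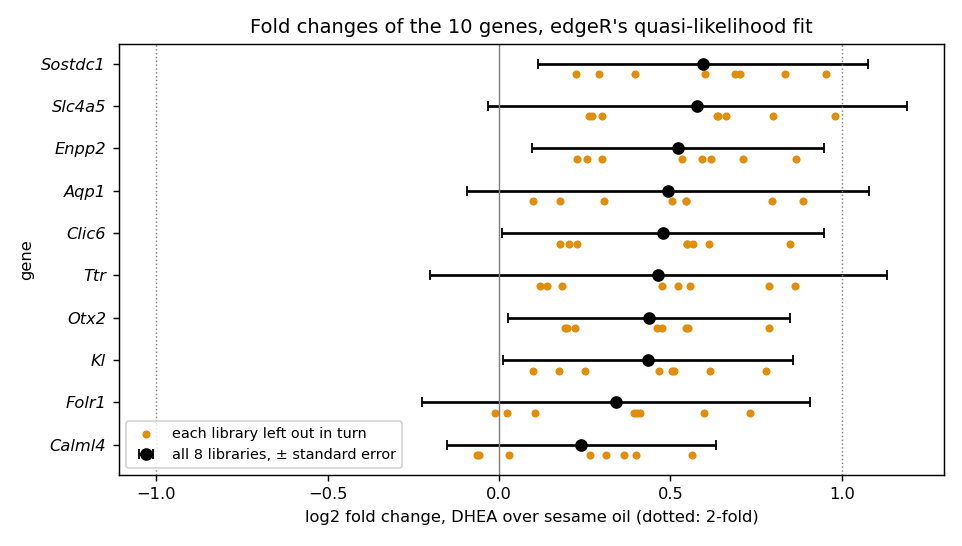
Log2 fold change of each of the 10 genes, DHEA over sesame oil, in edgeR's quasi-likelihood fit (black, ± standard error, 4 libraries against 4) and after omitting single libraries one by one (orange). All estimates with 8 libraries lie between 0.24 and 0.60, below the dotted line of a 2-fold change, and those with 7 libraries spread from below 0 to 0.98.

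Among the 29 further choroid plexus genes, 0 were called (1.60% of all genes) and 1, Slc12a2, had an unadjusted p under 0.05 (9.31% of all genes), a share below that background. Slc12a2, which encodes the sodium-potassium-chloride cotransporter NKCC1, was 172.8, 122.9, 159.2 and 173.2 CPM in the DHEA libraries HipR3, HipR4, HipR7 and HipR11. It was 122.2, 112.4, 113.1 and 110.4 CPM in the control libraries HipR5, HipR9, HipR10 and HipR16. The groups did not overlap, although HipR4 and HipR5 nearly touched. The log2 fold change was 0.46 ± 0.088 (SE; edgeR quasi-likelihood, BH-adjusted p = 0.143), which did not pass the adjusted threshold. Its pattern was not that of Ttr (r = 0.446 over the 8 libraries), and oligodendrocytes are known to express it too. The median log2 fold change over the 29 was 0.38. Of the 135 genes with r above 0.9 to Ttr, 0 had an unadjusted p under 0.05, compared with 13.1% of the 16813 genes whose mean count reached 10. These genes were picked on the same libraries, so the count is not independent of the pattern of Ttr.

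Marker lists of other cells and tissues, not all of which border the hippocampus, were summed in each library beside the 10 genes. Ependymal cells, which line the ventricles, gave 60.8, 59.4, 64.5 and 69.3 CPM for 12 genes in HipR3, HipR4, HipR7 and HipR11, and 51.0, 63.1, 62.2 and 38.8 CPM in HipR5, HipR9, HipR10 and HipR16. Their sum in HipR4 and HipR9 was thus near that of the other libraries, while the choroid plexus sum in HipR4 was 354.3 CPM. The most abundant ependymal gene was Rarres2, at 9.199 FPKM, and all 12 had counts. Of the 12, 1 gene, Rarres2, had an unadjusted p under 0.05, a share near the 9.31% of all genes (log2 fold change 0.38 ± 0.16, SE; edgeR quasi-likelihood, BH-adjusted p = 0.488). The 10 meningeal genes, led by Mgp at 34.9 FPKM, summed to 185.8, 120.6, 60.5 and 150.1 CPM in the same DHEA libraries and 124.4, 131.0, 112.6 and 138.3 CPM in the control libraries. They were lowest in HipR7, a library with intermediate choroid plexus levels, and 0 of the 10 had an unadjusted p under 0.05.

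The 7 medial habenula genes summed to 38.1 to 53.5 CPM over the 8 libraries, most of it from Nwd2, which neurons elsewhere express as well, whereas the habenular transcription factor gene Pou4f1 had at most 3 counts in any library. The 8 thalamic genes, led by Slc17a6 at 6.72 FPKM, summed to 71.1 to 103.7 CPM. Of these, 1 gene, Gbx2, was called (1.60% of all genes), with 0.048 CPM on average in the DHEA group and 0.333 CPM in the control group. Its 28 counts in HipR16 were the most in any library, and without HipR16 it was not called (edgeR, unadjusted p = 0.169). The 5 red blood cell genes, led by Hbb-bs at 111.5 FPKM, summed to 45.7 CPM in HipR7 and 159.3 CPM in HipR3, with 52.5 CPM in HipR5 and 147.9 CPM in HipR4. The habenular sum was also lowest in HipR4, at 38.1 CPM, but by a small margin to HipR11 at 39.9 CPM. None of these 3 sums had HipR4 lowest and HipR9 next, the order of the choroid plexus genes.

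The sums of the anterior pituitary and of the myelin genes did not overlap between the groups, unlike those of the choroid plexus genes. These lists were chosen with earlier results of these data known, so the counts in this paragraph are a description only. By single gene, the groups did not overlap for 2 of the 9 pituitary genes and 2 of the 11 myelin genes (5.04% of all genes). The 9 pituitary genes, led by Prl at 3.04 FPKM, summed to 3.39, 1.85, 2.25 and 2.35 CPM in HipR3, HipR4, HipR7 and HipR11, and 3.53, 6.94, 30.3 and 3.65 CPM in HipR5, HipR9, HipR10 and HipR16. HipR10 was highest although its choroid plexus sum of 3123 CPM was in the middle, and Fshb had 0 counts in every library. The sums of HipR3 and HipR5, at 3.39 and 3.53 CPM, nearly touched, and Lhb made up 2.29 and 2.32 CPM of them. Of the 8 tested, 3 genes, Gh, Prl and Pomc, were called (1.60% of all genes), each with its lower mean under the DHEA label, a direction that is as uncertain as the labels, with BH-adjusted p = 0.0818, 0.0647 and 0.471 (edgeR quasi-likelihood). The call of Pomc rested on HipR10, at 4.93 CPM against 0.513 to 1.49 CPM in the other control libraries. Without HipR10 its log2 fold change was -0.27 (edgeR, unadjusted p = 0.512), without HipR11 it was -0.98 (p = 0.0679), and exact permutation over the 8 libraries gave p = 0.286. The 11 myelin genes summed to 6839, 8630, 6778 and 7082 CPM in the DHEA libraries and 5467, 6563, 5439 and 4607 CPM in the control libraries. All 11 had an unadjusted p under 0.05 (9.31% of all genes) and were higher in the libraries labelled DHEA, and 0 were called (1.60% of all genes). HipR4, the lowest library for Enpp2, was the highest for myelin. The part of other cells in the level of Enpp2 was not tested.

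**Figure D5:**
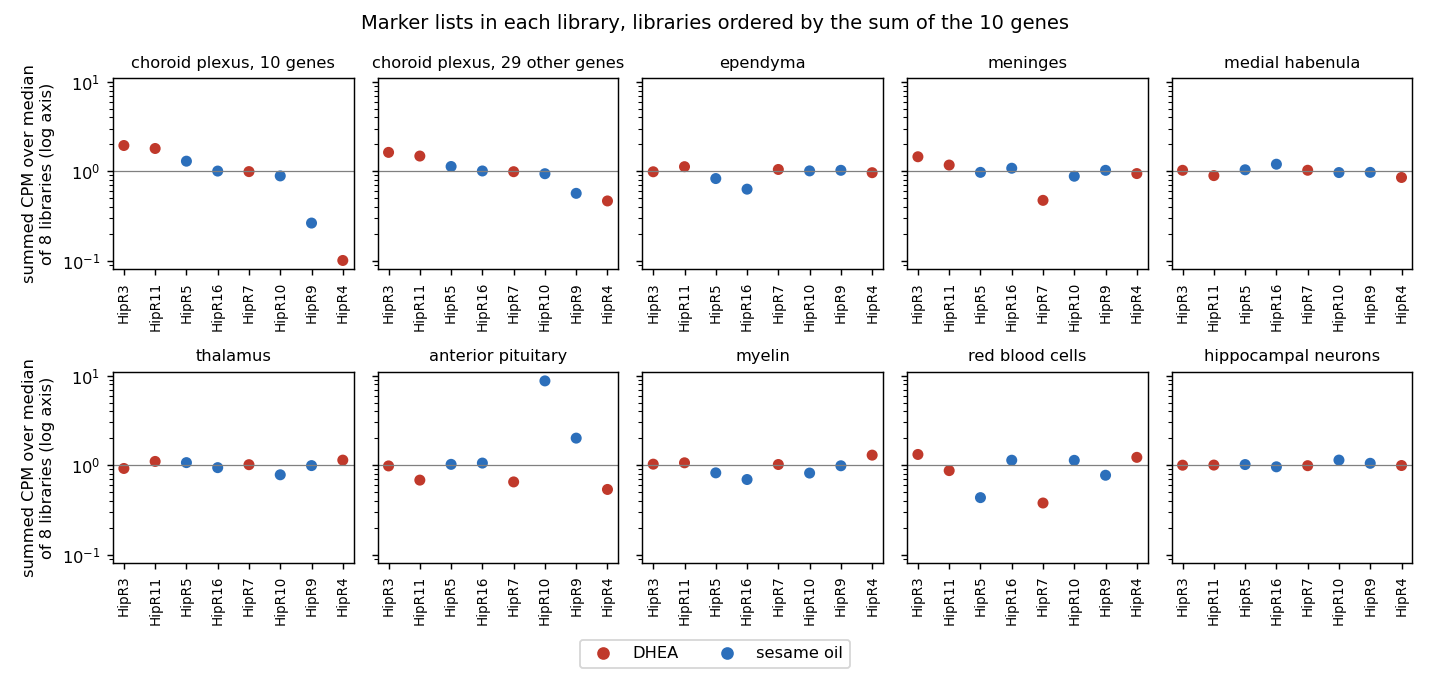
Summed CPM of each marker list in each library, divided by the median of the 8 libraries (log axis), with libraries ordered by the sum of the 10 choroid plexus genes and coloured by group. The choroid plexus panels fall toward HipR9 and HipR4, the pituitary panel peaks in HipR10 at 30.3 CPM, and the panel of hippocampal neurons stays between 1106 and 1315 CPM.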

How the data were processed

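Total RNA of 8 hippocampal samples was made into libraries and sequenced as paired-end reads. The authors' counts per gene come from HTSeq-count, run on HISAT2 alignments of quality-filtered reads. The submitters' processing notes name fastp, HISAT2, HTSeq and GRCm39, and no versions or annotation are given in the sources used here. The deposited counts are not normalized, and the deposited FPKM are scaled by the authors to gene length and library total.

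All 27612 genes with any count entered the quasi-likelihood test of edgeR 4.0.16 (R 4.3.3, TMM normalization, prior count 0.125). The standard error is the size of the log2 fold change divided by the square root of F. CPM are TMM-normalized counts per 1000000. Total counts of 31483772 to 38038361 make 3 counts equal to less than 0.1 CPM, and intervals cover counting error only (normal approximation on the log ratio). Nothing in the labels gives a batch or pairing. The methods describe littermate controls for the behavioural tests, after which hippocampi were taken, and group housing, but which libraries shared a litter or cage is not given in the sources used here, so no litter term could be fitted and p-values measure the spread between these samples. Libraries of one group differed by far more than sampling noise. The exact permutation test compared mean CPM.

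The 10 genes and the marker lists were chosen with earlier results of these data known. Named genes were the 10, called genes of each list, the most abundant gene or genes of each list, defining genes at 0 counts and the 10 genes closest to Ttr. A gene that this rule names is not reported here. Pou4f1, Prox1, Otx2os1 and Lhb were further singled out after their values were seen. Alternatives were DESeq2 1.42.0, RLE normalization, 2 count filters, robust moderation, a prior count of 1, limma-trend (limma 3.58.1) on log2(FPKM + 1) and log2(FPKM + 0.1), thinning to the smallest total and leaving out each library. The scripts were tested on simulated data.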

Additional observations from a re-analysis of the deposited data

Results flagged for a closer look

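By Dixon's criterion at 95%, which compares a library's distance from its neighbour with the whole spread of its 4 libraries, 3 of 38 sets stood out, and about 1.9 would do so by chance. Clic6 in the control group was 22.2 CPM in HipR9 and 59.3 to 65.8 CPM in the others (ratio 0.850). The summed anterior pituitary genes in the control group were 30.3 CPM in HipR10 and 3.53 to 6.94 CPM in the others (ratio 0.873). The summed myelin genes in the DHEA group were 8630 CPM in HipR4 and 6778 to 7082 CPM in the others (ratio 0.836). The levels of the 10 genes in HipR4 did not meet this criterion within the DHEA group.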

How the results depend on the processing

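The count of the 10 genes called was 0 under every alternative run, but without HipR4 this rested on the fold threshold alone, since 10 of the 10 then had an unadjusted p under 0.05. Over all genes, 442 were called (221 higher and 221 lower in the DHEA group). The count was 164 with DESeq2, 284 with at least 10 counts over the libraries, 62 after filterByExpr, 1 by limma-trend with 1 added to FPKM before the log, 48 with 0.1 added, 2571 at an unadjusted p under 0.05 without a fold threshold and 0 at an adjusted p under 0.05 (0 to 93 with each library left out), and 361 to 512 with each library left out. The filters test fewer genes, and for the others the cause was not tested. Of 180 values of the fold changes of the 10 genes under alternatives, 12 reversed their sign and none was called. On log2(FPKM + 1) the difference was -0.35 for Ttr, -0.043 for Folr1 and -0.015 for Calml4. On log2(FPKM + 0.1) it was -0.36 for Ttr, -0.26 for Folr1, -0.0072 for Clic6, -0.17 for Aqp1, -0.12 for Slc4a5 and -0.082 for Calml4. Without HipR3 it was -0.012 for Folr1 and -0.065 for Calml4, and without HipR11 -0.058 for Calml4. Over the 8 fits that each omit a library, Folr1 ranged from -0.012 to 0.73 and Calml4 from -0.065 to 0.56.

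Without HipR4 the ratio of the highest to the lowest library was 9.28 for Ttr, 8.95 for Slc4a5, 8.93 for Aqp1 and 8.60 for Sostdc1. It was 7.96 for Folr1, 5.67 for Enpp2, 5.39 for Kl, 5.11 for Clic6, 4.32 for Otx2 and 3.49 for Calml4. With the mean log2 level of the 10 genes as a covariate, chosen after seeing the data, 421 genes were called (118 higher, 303 lower), of which 296 were among the 442. Without HipR4 and HipR9, also chosen after seeing the data, 374 were called (234 higher, 140 lower), of which 208 were among the 442. No paired analysis was possible because nothing in the labels links a DHEA library to a particular control library. Ranked by Spearman's rho, 3 of the 10 genes closest to Ttr were shared with the ranking by Pearson's r. Depth limits the value of Slc4a5 in HipR4, at 16 counts, and that of Tmem72, at 6.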
